A study of Mus musculus with 2 samples.

Results

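The TREM2, Dectin-1 and SYK pathway genes are 10 listed genes of microglial receptor signaling, and were followed in brain mononuclear cells of CD47 KO and WT mice. Their members were the probe sets to which the annotation of the array gives exactly 1 gene symbol, that symbol being on the list. By this rule 9 of the 10 genes were found, through 15 probe sets, among 18193 genes named through 34945 probe sets in all. *Card9* had no such probe set, and its signal is not analysed here. A probe set is a group of short probes that are read together, and its signal is a linear measure of brightness. It can match more than 1 transcript.

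RNA was pooled from 6 CD47 KO mice (*Cd47*-/-, aged 12 to 16 wks) and from 7 WT mice (aged 10 to 15 wks), all labelled male, with no treatment named in the labels and no strain background given in the sources used here. CD47 is a ligand of the receptor SIRPα, and the KO animals carry the null allele in all cells. Whole brains were digested and separated by density on Percoll, so the preparation holds microglia together with other cells of like density. RNA of each pool (20 ng) was amplified for 1 GeneChip Mouse Genome array per genotype, so the values have neither a p-value nor an error over animals.

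TREM2 is a lipid-sensing receptor of microglia that has no signaling motif of its own and relies on the adaptor DAP12, encoded by *Tyrobp*. Src family kinases phosphorylate the ITAM of DAP12, which then recruits the kinase SYK. Dectin-1, the beta-glucan receptor encoded by *Clec7a*, recruits SYK through a motif in its own tail. SYK acts on the phospholipase PLCγ2 and the exchange factor VAV1, and signals from Dectin-1 reach NF-κB through CARD9, BCL10 and MALT1. The lipid phosphatase SHIP1, encoded by *Inpp5d*, restrains the pathway, and many of its genes are known for their activity in microglia around damaged myelin and amyloid.

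The labels were checked first. All 5 probe sets of *Cd47* were lower in CD47 KO cells, with Log2 ratios (KO/WT) between -1.86 and -1.45. Their signals were 334 to 1688 in CD47 KO cells and 1017 to 5816 in WT cells. All 5 thus stayed above the median of the CD47 KO array, which was 146. The source of the signal left in CD47 KO cells was not tested. The 11 microglia markers with a named probe set were all bright, with no signal of the brightest probe set below 1378 on either array. The 3 probe sets of *Xist*, the RNA of X inactivation, had signals of 1327 to 6530 in CD47 KO cells and 925 to 7070 in WT cells, although both pools are labelled male. The brightest probe set of the Y-linked gene *Eif2s3y* had 461 in CD47 KO cells and 189 in WT cells. Its other probe set went the other way, with 146 in CD47 KO cells and 165 in WT cells. Whether female animals entered the pools was not tested.

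The receptor genes were higher in CD47 KO cells. *Clec7a* (chromosome 6, 129461591 to 129472785, GRCm38.p6 in RefSeq, as for all positions here), read by probe set 1420699_at, had a signal of 586 in CD47 KO cells and 326 in WT cells, a Log2 ratio (KO/WT) of 0.85 and the highest of the 9 genes. *Trem2* (chromosome 17, 48346401 to 48352276, 1421792_s_at) had 6537 in CD47 KO cells and 4782 in WT cells, a Log2 ratio of 0.45. *Cd33* (chromosome 7, 43527399 to 43537424, 1450513_at), which encodes a sialic acid-binding receptor that is inhibitory in human cells, had 3765 in CD47 KO cells and 2899 in WT cells, a Log2 ratio of 0.38. None of the 3 passed 2-fold. In RNA of a mixed preparation, a larger number of cells of a type and more RNA per cell cannot be told apart.

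The second *Trem2* probe set (1421226_at) was dim on both arrays, with a signal of 46.4 in CD47 KO cells and 5.63 in WT cells. Its 8.24-fold difference stands on signals below the array medians, which were 146 in CD47 KO cells and 161 in WT cells. With the 25th percentile of the arrays added to both signals, its Log2 ratio was 0.93, against 3.04 as deposited. Expression was called where either signal was at or above its array median, and this probe set was below both. It was the only one of the 15 left out by that rule, and both *Trem2* probe sets carry the same accession in the annotation.

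The adaptor genes lie side by side on chromosome 7 and differed in direction. *Tyrobp* (30413782 to 30417582, 1450792_at) had the brightest member probe set, with 17617 in CD47 KO cells and 16223 in WT cells, a Log2 ratio of 0.12. *Hcst* (30417712 to 30419854, 1419119_at) encodes DAP10, the adaptor that couples the receptor NKG2D to PI3-kinase. It had 1166 in CD47 KO cells and 1311 in WT cells, a Log2 ratio of -0.17. The annotated genes are separated by 129 bases. Each was read by 1 probe set, and both differences were smaller than the SD of 0.32 between probe sets of 1 gene at this brightness.

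*Syk* (chromosome 13, 52582610 to 52648792) was lower in CD47 KO cells on all 4 of its probe sets. The 2 brighter ones (1418262_at and 1418261_at) had signals of 315 and 281 in CD47 KO cells and 390 and 408 in WT cells. Their Log2 ratios of -0.31 and -0.54 were smaller in size than the SD of 0.57 between probe sets of 1 gene at this brightness. The dimmer ones (1457239_at and 1425797_a_at) had 95.5 and 82.9 in CD47 KO cells and 178 and 168 in WT cells. Their Log2 ratios of -0.90 and -1.02 were larger in size than the SD of 0.82 at their brightness. The mean over the 4 probe sets was -0.69 ± 0.33 (SD over probe sets, not over animals). The probe set at -1.02, 2.02-fold lower, was the only expressed member probe set past 2-fold. Both dimmer probe sets lay below the median of the CD47 KO array and counted as expressed through the WT array alone. They could thus enter only with a lower signal in CD47 KO cells. The mean of -0.69 includes both and is partly set by that rule, while the 2 brighter ones had -0.31 and -0.54.

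The targets and regulators of SYK differed among themselves. *Plcg2* (chromosome 8, 117498275 to 117635142, 1426926_at), which encodes the phospholipase, had 1138 in CD47 KO cells and 1054 in WT cells, a Log2 ratio of 0.11. *Vav1* (chromosome 17, 57279100 to 57329236) had 559 in CD47 KO cells and 450 in WT cells on its brighter probe set (1422932_a_at), a Log2 ratio of 0.31. Its dimmer probe set (1440300_at), with 186 in CD47 KO cells and 131 in WT cells, gave 0.51 but reached the median in CD47 KO cells only. The probe sets of *Inpp5d* (chromosome 1, 87620312 to 87720510) disagreed in direction. The brighter one (1418110_a_at) had 984 in CD47 KO cells and 743 in WT cells, a Log2 ratio of 0.40, while the other (1424195_a_at) had 382 in CD47 KO cells and 445 in WT cells, a Log2 ratio of -0.22. Their mean was 0.09 ± 0.44 (SD over 2 probe sets), so the direction of *Inpp5d* depends on the probe set.

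**Figure D1:**
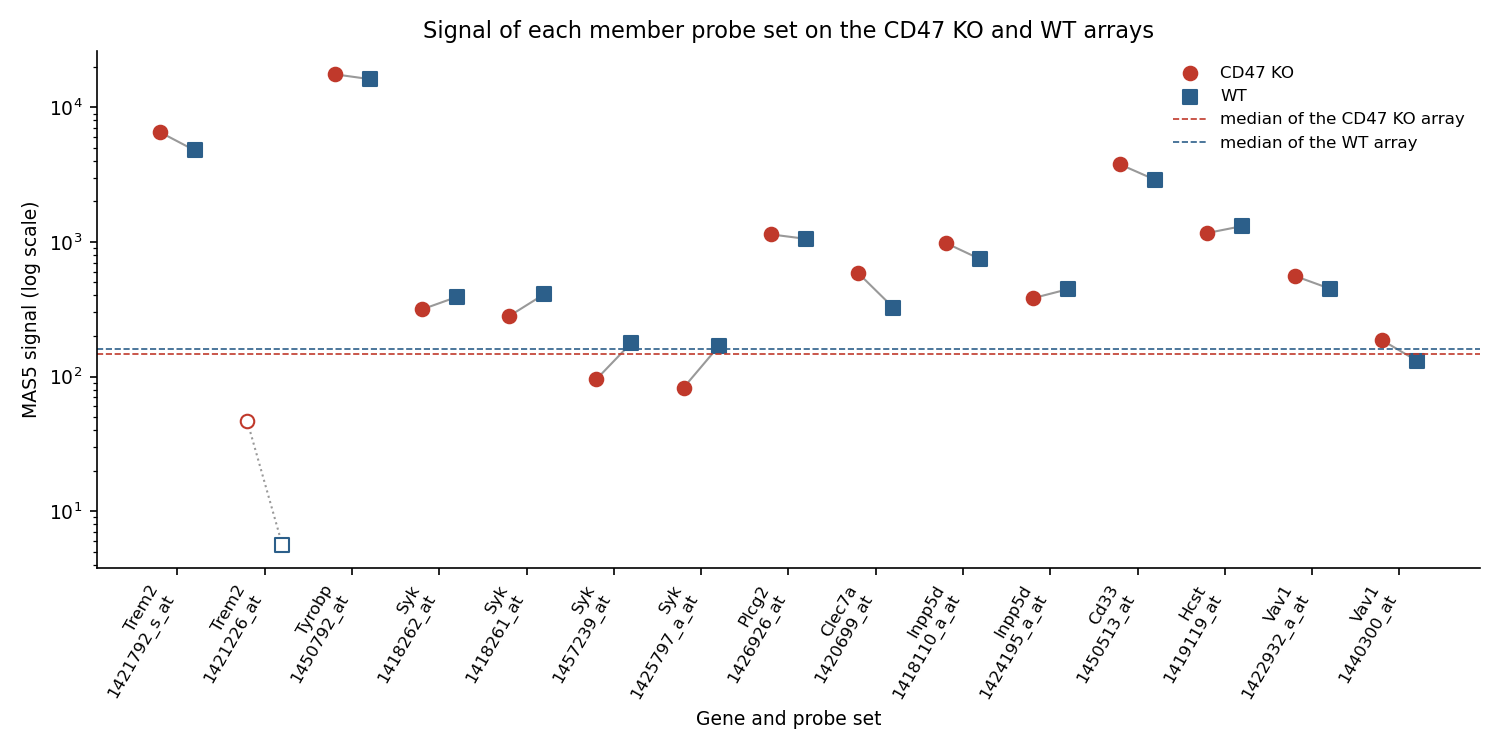
MAS5 signal (log scale) of the 15 member probe sets on the CD47 KO array (circles, left) and the WT array (squares, right), with 1 array per genotype and the array medians as dashed lines. *Trem2*, *Cd33* and *Clec7a* are higher in CD47 KO cells and all 4 *Syk* probe sets are lower. The 2 dimmer *Syk* probe sets are expressed through the WT array alone, so they could enter only if lower. The open symbols show the *Trem2* probe set that was not expressed.

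Each gene was then represented by the brightest of its probe sets, by mean signal. On this measure 7 of the 9 genes had a higher signal in CD47 KO cells and 2, *Syk* and *Hcst*, a lower one, where 50.3% of all 11682 expressed genes were higher. Their Log2 ratios had a median of 0.31, or 0.12 when the expressed probe sets of each gene were averaged, against 0.00 over all expressed genes. None was more than 2-fold higher or lower, while 3.53% of all expressed genes were more than 2-fold higher and 5.41% were more than 2-fold lower. Counted by probe set, 8 of the 14 expressed member probe sets were higher, against 50.7% of all 21167 expressed probe sets, and their median was 0.11. Past 2-fold, 0 of the 14 were higher and 1 was lower, against 3.95% and 5.49% of all expressed probe sets. With the median required on both arrays, 11 member probe sets were left, of which 7 were higher and 4 lower. The counts by gene and by probe set thus differ, since 4 of the 6 lower probe sets belong to *Syk*.

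How unusual each ratio was for its brightness was described with 4 classes of expressed probe sets of like number, ordered by mean signal. The middle 95% of Log2 ratios ran from -2.07 to 1.75 in the dimmest class and from -0.60 to 0.58 in the brightest. All 14 expressed member probe sets lay inside the middle 95% of their class. *Trem2* came nearest to the upper end, with a Log2 ratio above that of 94.5% of the brightest class. *Clec7a* stood above 93.5% of its class and *Cd33* above 91.4%. The lowest *Syk* probe set stood above 13.2% of the dimmest class, in which 13.7% were more than 2-fold lower. The SD between expressed probe sets of 1 gene was 0.82 in the dimmest class and 0.32 in the brightest. It also holds differences between probes and splice forms, and covers no error between animals.

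**Figure D2:**
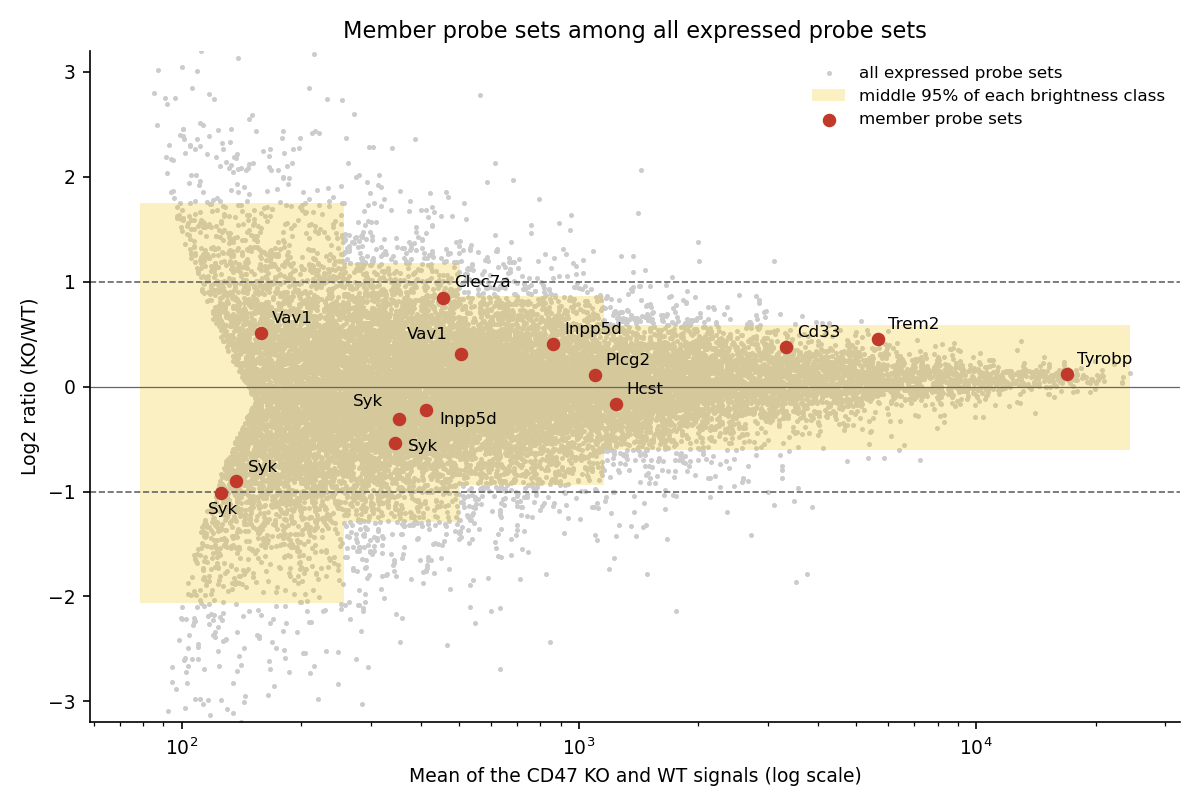
Log2 ratio (KO/WT) against the mean of the CD47 KO and WT signals (log scale) for all expressed probe sets (grey), with 59 of them outside the plotted range, the 14 expressed member probe sets (red) and the middle 95% of each brightness class (yellow). The dashed lines mark 2-fold, all member probe sets lie inside the yellow range, and the lowest *Syk* probe set is just past 2-fold.

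Other genes of the pathway were taken from 7 lists, and 51 of the 69 listed genes were expressed. In CD47 KO cells 32 of these had a higher signal and 19 a lower one, with 3 more than 2-fold higher, 1 more than 2-fold lower and a median Log2 ratio of 0.16. Of all expressed genes, 50.3% were higher, 3.53% more than 2-fold higher and 5.41% more than 2-fold lower, so the counts past 2-fold are close to these shares. The 4 named genes of TREM2 ligands and cleaving proteases were all higher, with a median of 0.36, or 0.21 when the expressed probe sets of each gene were averaged. *Apoe*, an apolipoprotein that binds TREM2, had 2746 in CD47 KO cells and 1642 in WT cells, a Log2 ratio of 0.74. *Clu*, another such apolipoprotein, had 0.30. *Adam17* and *Adam10*, whose proteases shed TREM2 from the cell surface, had 0.42 and 0.00 on their brightest probe sets, but the mean of *Adam17* over its 3 probe sets was -0.07.

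The other receptors that signal through DAP12 or DAP10 were divided, with 3 of 7 expressed genes higher, 4 lower and a median of -0.02, whose sign depended on the setting (-0.22 with no signal threshold, 0.10 after quantile and 0.07 after loess normalization). *Siglech*, a receptor of microglia, had the brightest probe set, with 11250 in CD47 KO cells and 9876 in WT cells, a Log2 ratio of 0.19. *Cd200r4*, a CD200 receptor-like gene, had 0.82 and *Clec5a*, a myeloid lectin, had 0.36. *Trem1*, known as an amplifier of inflammation in neutrophils and monocytes, had 132 in CD47 KO cells and 239 in WT cells, a Log2 ratio of -0.86, with -1.24 on its other probe set, and its relative *Trem3* had -0.61. Of the C-type lectin receptors and the FcR gamma chain, 3 of 4 expressed genes were higher and the median was 0.23, which became 0.06 without probe sets whose names end in _x_at or _s_at and 0.44 with no signal threshold. *Clec1b*, which encodes the podoplanin receptor CLEC-2, had 0.83, and *Clec4d*, the receptor MCL, had 0.40. *Clec4e*, the glycolipid receptor Mincle, had -0.75. *Fcer1g*, which encodes the FcR gamma chain, had 18341 in CD47 KO cells and 17542 in WT cells, a Log2 ratio of 0.06.

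The Src family kinases, which act just before SYK, had 2 of 4 expressed genes higher and a median of -0.04, or 0.24 at a threshold of the 75th percentile. *Fgr*, a kinase of myeloid cells, had 206 in CD47 KO cells and 425 in WT cells, a Log2 ratio of -1.04, and was the only expressed gene of the 7 lists more than 2-fold lower. *Yes1* had 0.75 where it was brightest but averaged -0.04 over 3 probe sets, *Src* had 0.19 and *Fyn* had -0.27. *Lyn* had no named probe set and is not analysed here.

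The adaptors, lipid enzymes and exchange factors around SYK had 8 of 14 genes higher and a median of 0.03, which lay between just below 0 and 0.12 under the alternative settings. *Btk*, a TEC family kinase that acts on PLCγ2, had 316 in CD47 KO cells and 165 in WT cells, a Log2 ratio of 0.93, and the adaptor gene *Blnk* had 0.77. *Pik3ap1*, an adaptor for PI3-kinase, had -0.77 on the brighter of its probe sets and 0.01 on the other, with a mean of -0.38, and the exchange factor gene *Vav3* had -0.53. The brightest probe set, that of the PI3-kinase subunit gene *Pik3r1*, had 0.02.

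Of the CARD9 complex and related kinases and transcription factors, 8 of 10 expressed genes were higher, with a median of 0.29. The list also holds *Prkcd*, whose kinase acts on CARD9, and the NFAT genes of the calcium branch. More than 2-fold higher were 3 of the 10, which are all such genes of the 7 lists. Of all expressed genes, 50.3% were higher and 3.53% more than 2-fold higher. The list was chosen with earlier results of these data known. *Ikbkg*, the regulatory subunit of the IKK complex, had 789 in CD47 KO cells and 367 in WT cells, a Log2 ratio of 1.11. *Malt1*, the paracaspase partner of BCL10, had 420 in CD47 KO cells and 200 in WT cells, a Log2 ratio of 1.07. *Rela*, an NF-κB subunit, had 420 in CD47 KO cells and 208 in WT cells, a Log2 ratio of 1.02 on its only expressed probe set. *Ikbkb*, a kinase of the IKK complex, had 414 in CD47 KO cells and 781 in WT cells, a Log2 ratio of -0.91, but its 4 probe sets ranged up to 1.55 and averaged 0.21. The brightest probe set, that of *Bcl10*, had 0.15. Other probe sets of *Ikbkg* and *Malt1* gave ratios down to -0.53 and -0.54, so only *Rela* passed 2-fold with no probe set against it.

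The inhibitory receptors and phosphatases had 4 of 8 expressed genes higher and a median of -0.04. This median lay between -0.19 and 0.05 under the alternative settings. *Cd300lf* and *Siglece*, both inhibitory receptors of myeloid cells, had 0.90 and 0.80, and the adaptor gene *Dok3* had 0.73. *Cd300a*, an inhibitory receptor with the brightest probe set of the list, had 1430 in CD47 KO cells and 1770 in WT cells, a Log2 ratio of -0.31.

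**Figure D3:**
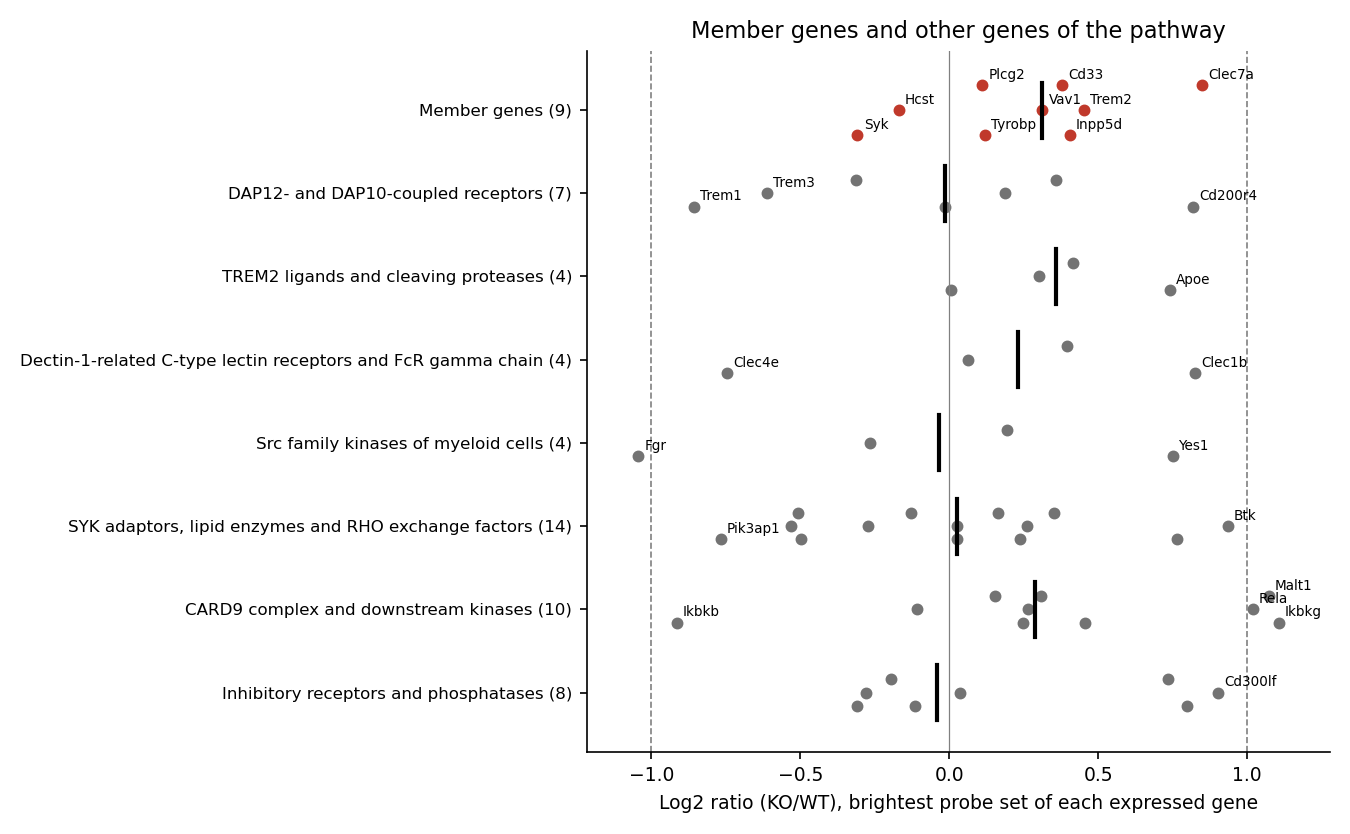
Log2 ratio (KO/WT) on the brightest probe set of each expressed gene (points) for the member genes (red) and the 7 lists of other pathway genes (grey), with the median of each list as a bar, the number of genes in parentheses and 2-fold as dashed lines. The member genes have a median of 0.31 (0.12 as a mean over probe sets), and *Ikbkg*, *Malt1*, *Rela* and *Fgr* are the 4 genes past 2-fold.

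Markers of the cells in the preparation differed as well, and their part in the values of the pathway genes was not tested. On the brightest probe set, all 11 microglia markers were higher in CD47 KO cells, with a median Log2 ratio of 0.25 and a range from 0.02 (*Sall1*) to 0.66 (*Cx3cr1*). *Sall1* had -0.58 on its other expressed probe set and a mean of -0.28, so its direction depends on the probe set. The summed signal of the 11 markers was 85224 in CD47 KO cells and 72215 in WT cells. *Clec7a* lay above the range of the brightest probe sets, 6 member genes lay within it, and *Hcst* and *Syk* lay below. The lower end of that range is the *Sall1* value, which the mean over probe sets would lower. *Csf1r* and *Olfml3*, the microglia markers with the brightest probe sets, had 0.07 and 0.43.

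Markers of other leukocytes, cells that are also known to use SYK, VAV1 and SHIP1, were mostly lower. Of the neutrophil markers, 2 of 7 were higher and the median was -0.20, with summed signals of 73538 in CD47 KO cells and 76076 in WT cells. *S100a9* and *S100a8*, calcium-binding proteins of neutrophils, had 0.09 and 0.16. Of the monocyte markers, 1 of 6 was higher and the median was -0.29, with summed signals of 19041 in CD47 KO cells and 23178 in WT cells. *Chil3* and *Plac8* had -0.29 and -0.27. All 4 expressed B cell markers were lower, with a median of -0.35 and summed signals of 2641 in CD47 KO cells and 3475 in WT cells. *Ighm* and *Cd79b*, of the B cell receptor, had -0.36 and -0.09, and *Ms4a1* had -1.98.

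T and NK cell markers had 4 of 6 genes higher and a median of 0.12, with summed signals of 6670 in CD47 KO cells and 6161 in WT cells. *Gzma* and *Cd3d* had 0.15 and 0.54, while *Cd3e* had -2.34. All 4 expressed border macrophage markers were lower, with a median of -0.83 and summed signals of 1870 in CD47 KO cells and 3001 in WT cells. *Pf4* and *Ms4a7* had -0.47 and -0.12, and *Mrc1* and *Cbr2* had -1.19 and -1.76. *Cxcr2*, *Ncr1*, *Pax5*, *Cd163* and *Lyve1*, markers of these lists, were below the median on both arrays. Medians were 0.31 for astrocyte, 0.07 for neuron, 0.06 for oligodendrocyte and -0.44 for endothelial and mural markers.

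**Figure D4:**
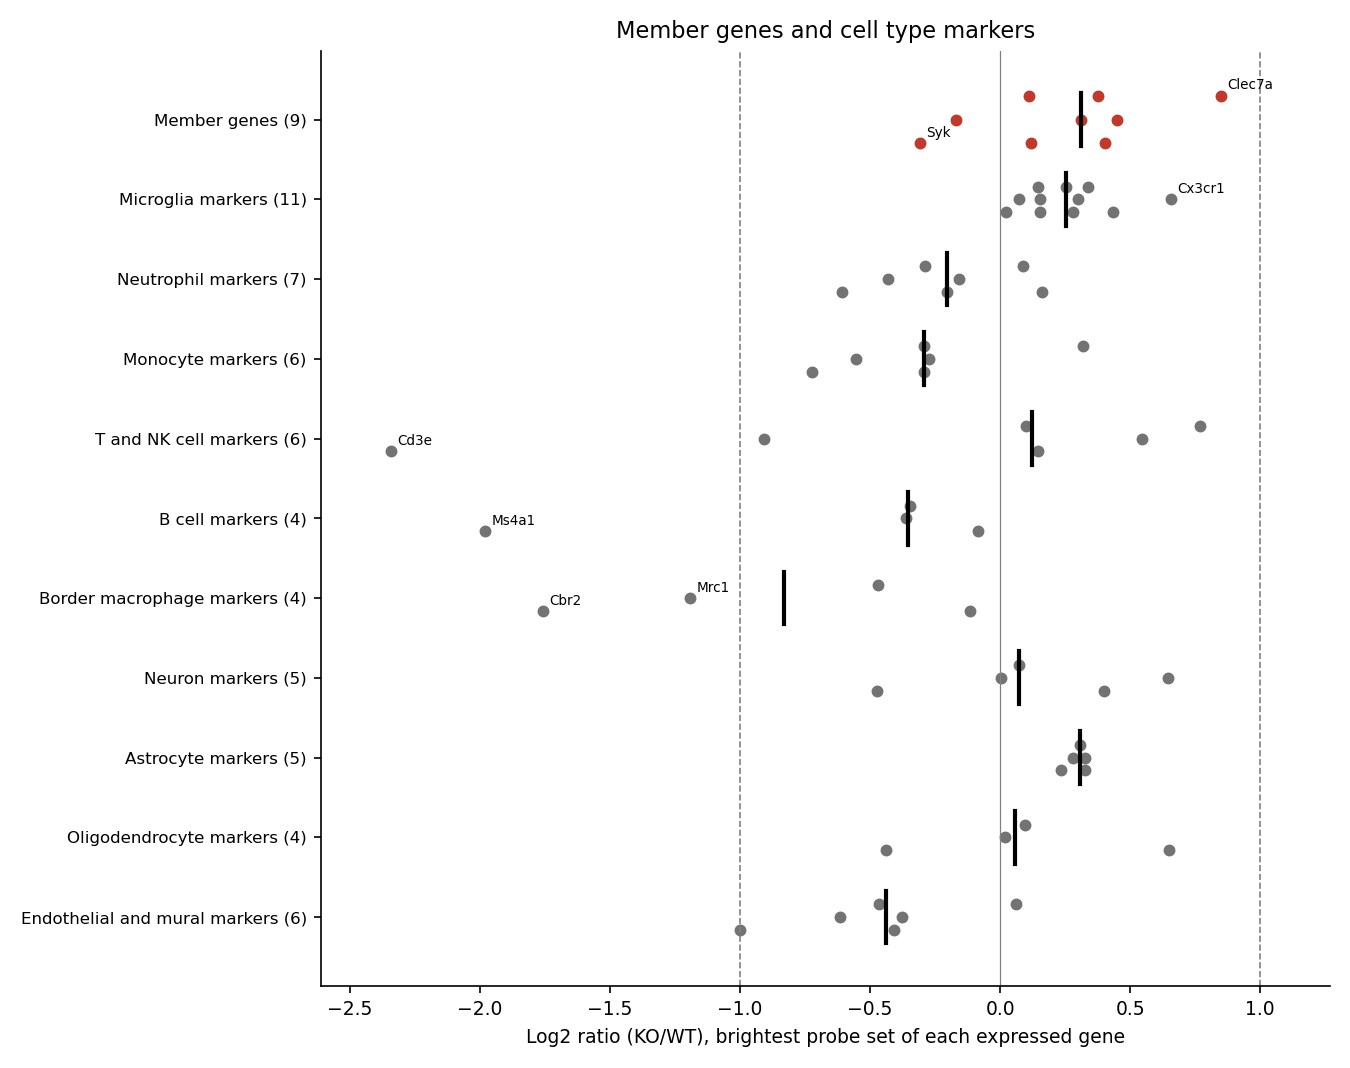
Log2 ratio (KO/WT) on the brightest probe set of each expressed gene (points) for the member genes (red) and 10 lists of cell type markers (grey), with the median of each list as a bar, the number of genes in parentheses and 2-fold as dashed lines. The 11 microglia markers are all above 0 on this probe set, though *Sall1* averages -0.28 over its 2 expressed probe sets. *Clec7a* lies above the plotted microglia markers and *Syk* below, and the border macrophage markers have the lowest median of -0.83.

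The promoters of the member genes were read as the 250 bases before each transcript start in RefSeq, build GRCm38.p6, where 9 of the 10 genes had 11 windows. *Tyrobp* had no entry. The letters GAGGAA, the core of the sites known for PU.1, a transcription factor of the myeloid lineage, were searched on both strands, where they read TTCCTC on the other. They were found in 7 of the 11 windows, which belong to 6 of the 9 genes, and in 23.3% of all 32851 windows of this length. The windows of *Plcg2*, *Hcst*, *Card9* and the upstream one of *Syk* held none. The other window of *Syk*, a gene lower in CD47 KO cells, held the letters 9 bases before its start. *Plcg2*, which held none, was higher. Whether the letters go with the direction of a gene was not tested. The 2 windows of *Clec7a* overlap and share their match, and a match is no measure of binding.

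The windows shown belong to genes that were higher in CD47 KO cells on the brightest probe set, hold the letters and end where the annotated gene begins. That of *Cd33*, also higher and with the letters, lies inside the annotated gene and is not shown. The match of *Syk* is not shown either, since *Syk* was lower. They are written 5′ to 3′ on the strand of the gene, with the match in capitals. That of *Trem2* lies at chr17:48346151-48346400 on the plus strand, and its match begins 40 bases before the start, on the opposite strand. That of *Clec7a* lies at chr6:129472786-129473035 on the minus strand, with its match 90 bases before the start. That of *Inpp5d* lies at chr1:87620062-87620311 on the plus strand, with its match 20 bases before the start. That of *Vav1* lies at chr17:57278850-57279099 on the plus strand, with its match 11 bases before the start.
Trem2: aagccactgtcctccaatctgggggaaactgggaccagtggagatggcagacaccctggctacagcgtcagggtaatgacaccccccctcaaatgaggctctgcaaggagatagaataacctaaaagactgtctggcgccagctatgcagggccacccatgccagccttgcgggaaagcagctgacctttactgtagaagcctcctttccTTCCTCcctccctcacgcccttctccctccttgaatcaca
Clec7a: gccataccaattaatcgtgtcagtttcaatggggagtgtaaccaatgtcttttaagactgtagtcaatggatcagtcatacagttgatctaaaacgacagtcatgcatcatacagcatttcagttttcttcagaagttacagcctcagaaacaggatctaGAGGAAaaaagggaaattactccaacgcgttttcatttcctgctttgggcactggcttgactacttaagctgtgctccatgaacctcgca
Inpp5d: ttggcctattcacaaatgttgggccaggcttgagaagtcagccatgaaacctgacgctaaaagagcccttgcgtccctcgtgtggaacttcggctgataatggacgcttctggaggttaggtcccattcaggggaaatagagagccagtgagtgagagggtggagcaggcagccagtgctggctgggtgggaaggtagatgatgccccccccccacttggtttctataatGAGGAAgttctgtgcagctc
Vav1: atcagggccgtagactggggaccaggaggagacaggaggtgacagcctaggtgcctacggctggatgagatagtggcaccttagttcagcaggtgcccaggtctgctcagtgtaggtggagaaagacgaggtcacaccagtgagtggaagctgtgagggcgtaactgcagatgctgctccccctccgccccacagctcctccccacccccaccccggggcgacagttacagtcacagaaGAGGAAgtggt

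The direction of each of the 9 genes was the same under every alternative setting that gave it a value. The thresholds and the raised low signals left the ratios unchanged, and adding a constant cannot change a sign. Only the normalizations and the choice of probe set could therefore change a direction. For the 6 genes with 1 expressed probe set, only the normalizations could. No alternative took the dimmer *Inpp5d* probe set alone, which had -0.22. *Clec7a* ranged from 0.78 to 0.89, *Trem2* from 0.39 to 0.45, *Cd33* from 0.33 to 0.38 and *Vav1* from 0.29 to 0.41. *Tyrobp* ranged from 0.02 to 0.12, *Plcg2* from 0.10 to 0.11 and *Inpp5d* from 0.09 to 0.41. *Syk* ranged from -0.69 to -0.26 and *Hcst* from -0.19 to -0.16. The widest ranges were those of *Syk* and *Inpp5d*, whose ends furthest from the reported value came from the mean over all expressed probe sets of the gene. The means of *Syk* and *Vav1* include probe sets that counted as expressed through 1 array alone.

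**Figure D5:**
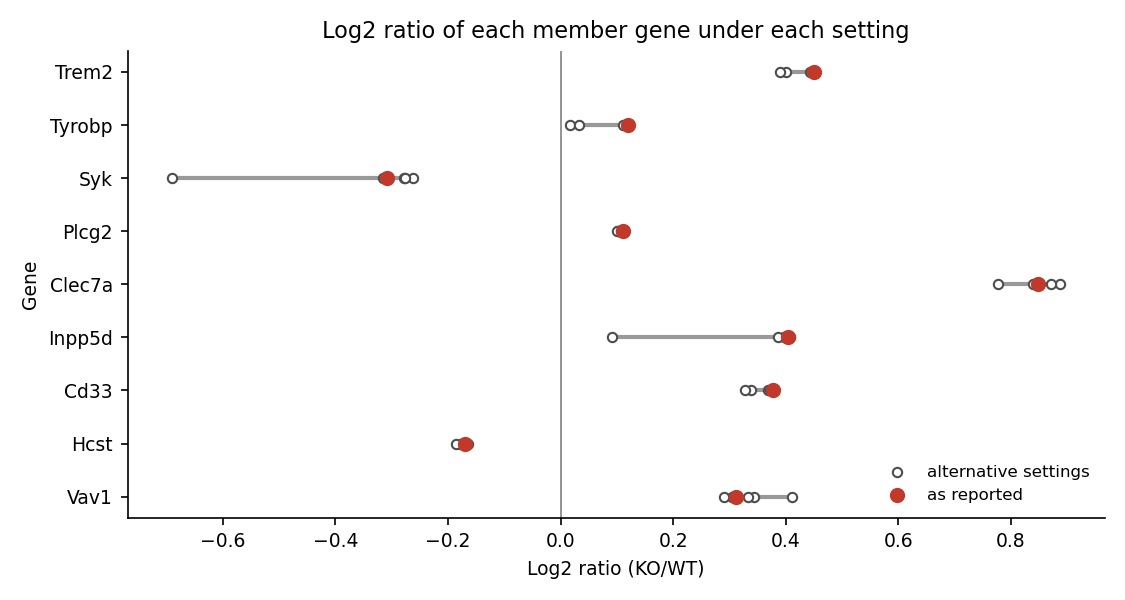
Log2 ratio (KO/WT) of each member gene as reported (red) and under the alternative settings (open points), with 1 array per genotype. *Syk* and *Hcst* stay below 0 and the other 7 genes above it, and *Clec7a* stays between 0.78 and 0.89. Only the normalizations and the choice of probe set could change a direction. For the 6 genes with 1 expressed probe set, only the normalizations could. The dimmer *Inpp5d* probe set (-0.22) was not taken alone.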

How the data were processed

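The authors pooled RNA by genotype, hybridised 1 array per pool and deposited MAS5 signal intensity values from the Expression Console Software, 1 per probe set on a linear scale (version not given in the sources used here). After trimming 2% at each end, the mean was 500.002 on both arrays. Of 45101 probe sets, 64 are controls, 34945 have 1 gene symbol in the platform annotation, 932 have several and 9160 are unnamed here. Of the named ones, 34741 matched RefSeq (GRCm38.p6) by gene identifier.

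Log2 ratios (KO/WT) were computed from the deposited intensities with no offset, and 2-fold was the threshold of the study. The member genes and the 17 gene lists were chosen with earlier results of these data known. Named were all members, up to 4 genes per pathway list with the largest ratio and the brightest one, and up to 2 of the brightest per marker list. *Eif2s3y*, *Kdm5d*, *Uty*, *Xist*, *Sall1*, *Cx3cr1*, *Ms4a1*, *Cd3e*, *Mrc1*, *Cbr2*, *Prkcd* and the markers below the median were named after their values were seen. So were *Lcp2*, *Nfatc2*, *Traf6* and *Clec4a2* in the closing section. Results were recomputed under 10 alternatives of threshold, normalization (loess fraction 0.4), low signals and choice of probe set. The calculation was tested on simulated arrays, where all planted differences were larger than 2-fold and lay in bright genes. Differences as small as those of the member genes were not planted, so their recovery was not tested. No test was made, as each genotype has 1 array, whose number limits the precision. Python 3.11.15, pandas 2.3.3 and statsmodels 0.14.6 were used.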

Additional observations from a re-analysis of the deposited data

How the results depend on the processing

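The Log2 ratios of the 9 member genes kept their direction under all 10 alternatives where they had a value. *Syk* had none at a threshold of the 75th percentile, and *Trem2* none without probe sets whose names end in _x_at or _s_at. Only the normalizations and the choice of probe set could have changed a direction. For the 6 genes with 1 expressed probe set, only the normalizations could have. Between 6 and 7 genes were higher, and none passed 2-fold under any alternative. Averaging the expressed probe sets of each gene lowered the median of the member genes to 0.12, against 0.31 as reported. The count of member probe sets past 2-fold, 1 as reported, was 2 with no signal threshold. It was 0 at the 75th percentile, with the median required on both arrays, after quantile or loess normalization, and with the 25th percentile added to both signals. With no signal threshold the receptors coupled to DAP12 or DAP10 had a median of -0.22, and at the 75th percentile the Src family kinases had 0.24. After quantile and loess normalization, the median of these receptors was 0.10 and 0.07, against -0.02 as reported. That of the inhibitory genes was 0.02 and 0.01, and 0.05 as a mean over probe sets, against -0.04. That of the SYK adaptors was 0.00 and below 0 after loess. Of all genes, 8.18% were more than 2-fold higher and 12.2% more than 2-fold lower with no threshold, 1.37% and 2.07% at the 75th percentile, and 1.28% and 2.42% with the median required on both arrays. After quantile normalization these shares were 4.31% and 4.49%. No scaling moved the median of all genes by more than 0.1. Beyond the alternatives' own construction, the cause was not tested.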

Other observations

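Several pathway genes outside the 10 listed ones had expressed probe sets that disagreed widely. *Ikbkb* ranged from a Log2 ratio (KO/WT) of -0.91 to 1.55 over 4 probe sets, and *Nfatc2*, a transcription factor gene, ranged from -1.29 to 0.78 over 5. *Lcp2*, which encodes the adaptor SLP-76, had -0.51 and 1.25, the brighter of its probe sets giving the lower ratio. *Traf6*, a ubiquitin ligase gene, ranged from -1.04 to 0.27 over 3 probe sets. *Clec4a2*, an inhibitory lectin gene, had -0.28 and -1.94, in the same direction on both.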
